A study of Mus musculus with 14 samples.

Results

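The mitochondrial ATP synthase (complex V) was followed through 10 of its subunit genes, *Atp5a1*, *Atp5b*, *Atp5c1*, *Atp5d*, *Atp5e*, *Atp5g1*, *Atp5g3*, *Atp5h*, *Atp5j* and *Usmg5*, chosen by symbol among the 54532 gene identifiers of the count tables. The hearts came from mouse models of Friedreich ataxia, all labelled C57BL/6 and 180 days after birth, whereas the study itself gives an age of 18 months. Libraries labelled YG8-800 (n = 4) stand for mice with both endogenous alleles of the targeted gene inactivated and a human transgene with an expanded GAA repeat, and those labelled WT (n = 4) for their wild-type controls. KIKO-700 mice carry 1 deleted allele and 1 allele with a GAA expansion in intron 1, and were read as males (n = 3) and females (n = 3). Wild-type hearts of the KIKO-700 cohort were not analysed here, so that the KIKO-700 males were compared with the KIKO-700 females, and the 14 libraries hold no test of KIKO-700 against wild type.

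Complex V makes ATP from ADP and phosphate with the energy of protons that flow back across the inner mitochondrial membrane. Protons turn a ring of c subunits in the membrane part (Fo), and a central stalk carries that rotation into the catalytic head (F1), while a peripheral stalk keeps the head from turning along. The beating heart takes most of its ATP from this enzyme, and its subunit genes are among the most strongly expressed nuclear genes of cardiac muscle. Only the subunits of *mt-Atp6* and *mt-Atp8* are encoded by mitochondrial DNA.

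The total gene counts ranged from 7142416 to 11650840 in the YG8-800 libraries, from 5226233 to 10572032 in the WT libraries, from 7291596 to 10873728 in the KIKO-700 male libraries and from 7502655 to 8400953 in the KIKO-700 female libraries. Between 28.9% and 44.6% of the counts fell on genes of mitochondrial DNA. The lowest share was that of YG8-800 2 and the highest that of WT 3. Ventricular cardiomyocyte markers, 8 in number, were all detected and summed to between 22860 and 49170 CPM (counts scaled to a common library total) over the 14 libraries. *Xist* was above 10 CPM in 2 of the 4 YG8-800 libraries and in 3 of the 4 WT libraries, whereas the study describes males only for this model, and the labels give no sex for these hearts. The targeted gene, which would check the labels, is not reported here, and it was not settled whether hearts labelled WT and YG8-800 have those genotypes. Each direction below is given for the YG8-800 label over the WT label, and would turn round were the labels exchanged. WT 2 and WT 3 were low in some genes of the contractile apparatus, with *Tnnt2* (cardiac troponin T) at 1662 and 1797 CPM in them, against 5163 and 4587 CPM in WT 1 and WT 4, and *Myl2* (ventricular myosin light chain) at 2226 and 1983 CPM, against 6137 and 7773 CPM. Of the other ventricular markers, *Myh6*, *Tnni3* and *Actc1* were also lower in both than in WT 1 and WT 4. *Myl3* and *Ryr2* lay between WT 4 and WT 1. *Pln* was higher, at 3402 and 3713 CPM in WT 2 and WT 3, against 2561 and 2321 CPM in WT 1 and WT 4. In a whole heart, fewer cells of a type and less RNA per cell cannot be told apart.

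Sequences are shown beginning with the c subunit, whose mature protein is the same from each of its genes. The coding sequences of *Atp5g1* (chr11:96068852-96075670, minus strand, GRCm38) and *Atp5g3* (chr2:73908447-73911326, minus strand) end in 75 codons that specify the same amino acid in 75 of 75 positions. These codons differed at 45 of 225 bases, and the codons before them, 61 in *Atp5g1* and 66 in *Atp5g3*, encode import signals that are cut off. Capitals mark the bases that differ between the genes.
Atp5g1: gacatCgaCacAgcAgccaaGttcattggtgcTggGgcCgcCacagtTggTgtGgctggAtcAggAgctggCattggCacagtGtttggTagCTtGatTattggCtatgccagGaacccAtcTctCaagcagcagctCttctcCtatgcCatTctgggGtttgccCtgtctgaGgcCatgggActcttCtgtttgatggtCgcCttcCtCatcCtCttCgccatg
Atp5g3: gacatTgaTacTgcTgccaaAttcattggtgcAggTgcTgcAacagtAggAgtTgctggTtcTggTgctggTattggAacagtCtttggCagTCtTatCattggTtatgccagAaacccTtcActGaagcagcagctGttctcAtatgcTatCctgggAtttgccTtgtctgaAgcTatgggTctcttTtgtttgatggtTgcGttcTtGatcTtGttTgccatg

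*Atp5g1* has a close processed pseudogene, *Gm10039* (chr11:100361716-100362126, minus strand), and the coding sequence and its copy differed at 1 of 411 bases, written G385A with positions counted from the first base of the start codon. The stretch around it, bases 355 to 411, is shown for both. Only coding bases were compared, here and for *Usmg5* below, and 3′ tags may lie outside them. How well reads could be told apart was not tested. The capital marks the base that differs.
Atp5g1: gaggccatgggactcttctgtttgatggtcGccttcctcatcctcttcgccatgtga
Gm10039: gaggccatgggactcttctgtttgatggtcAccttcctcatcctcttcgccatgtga

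*Usmg5* (chr19:47083464-47090647, minus strand) and its copy *Gm14539* (chrX:20581141-20581314, minus strand) were identical over 174 of 174 coding bases. No capitals are used because no base differs.
Usmg5 and Gm14539: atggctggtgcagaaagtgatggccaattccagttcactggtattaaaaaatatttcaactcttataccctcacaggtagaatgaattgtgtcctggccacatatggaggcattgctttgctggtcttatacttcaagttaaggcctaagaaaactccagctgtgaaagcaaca

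Promoters are shown for *Usmg5* and *Atp5j*, the members with the lowest p-values in the comparison of YG8-800 with WT hearts. RefSeq promoter windows (GRCm38.p6, 250 bases before the start to 50 after it) matched 9 of the 10 members, *Atp5a1* being without one. Capitals mark the letters CCGGAAG, the core read by ETS family factors such as GABP, on either strand (CTTCCGG on the other), and AAGATGGC, read by YY1. The *Usmg5* window is chr19:47090598-47090897 and the *Atp5j* window chr16:84834927-84835226, both on the minus strand. RefSeq gives *Atp5j* 2 windows, and the one nearer the start of *Gabpa* is shown.
Usmg5: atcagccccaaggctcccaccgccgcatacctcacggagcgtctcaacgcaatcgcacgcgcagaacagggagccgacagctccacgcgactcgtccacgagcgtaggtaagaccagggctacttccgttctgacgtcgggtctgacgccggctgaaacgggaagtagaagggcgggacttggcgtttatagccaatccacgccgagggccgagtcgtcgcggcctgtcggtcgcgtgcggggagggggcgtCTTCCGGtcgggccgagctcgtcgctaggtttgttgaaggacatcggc
Atp5j: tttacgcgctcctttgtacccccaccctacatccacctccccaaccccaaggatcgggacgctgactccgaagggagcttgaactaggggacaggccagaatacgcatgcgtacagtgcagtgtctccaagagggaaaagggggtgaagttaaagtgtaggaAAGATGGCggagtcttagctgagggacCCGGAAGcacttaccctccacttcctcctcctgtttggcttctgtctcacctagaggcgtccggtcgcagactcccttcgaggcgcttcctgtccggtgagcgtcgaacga

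The ETS core was found in the windows of 4 of the 9 members, *Atp5e*, *Atp5h*, *Atp5j* and *Usmg5*, and in 8.86% of the 32851 windows of all genes. A member was counted if any of its windows held the letters, whereas the percentages are shares of windows. *Atp5c1*, *Atp5d* and *Atp5j* have 2 windows each. In the *Atp5j* window shown the core lay at bases -61 to -55 from the start, and in *Usmg5* at bases 2 to 8 after it. The other *Atp5j* window held neither the ETS nor the YY1 letters. The YY1 letters were found in *Atp5j* alone among the members (2.75% of all windows), at bases -88 to -81, and the 10-letter palindrome read by NRF1 in none of the 9 (0.97% of all windows). These are matches of letters in a window, with no overlap among the motifs in the windows shown.

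The libraries were made with a 3′ tag kit that gives about 1 read per transcript whatever its length, so the CPM of different genes were set side by side without dividing by length. *Atp5g3* was the highest of the 10 members in 14 of 14 libraries, and *Atp5d* or *Atp5j* the lowest in 14 of 14. The highest single value was 28.7 times the lowest. Summed over the 10 members, the level was 8107 ± 1794 CPM in YG8-800 (SD, n = 4), 6612 ± 1102 CPM in WT (SD, n = 4), 7020 ± 704 CPM in KIKO-700 males (SD, n = 3) and 7705 ± 516 CPM in KIKO-700 females (SD, n = 3).

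**Figure D1:**
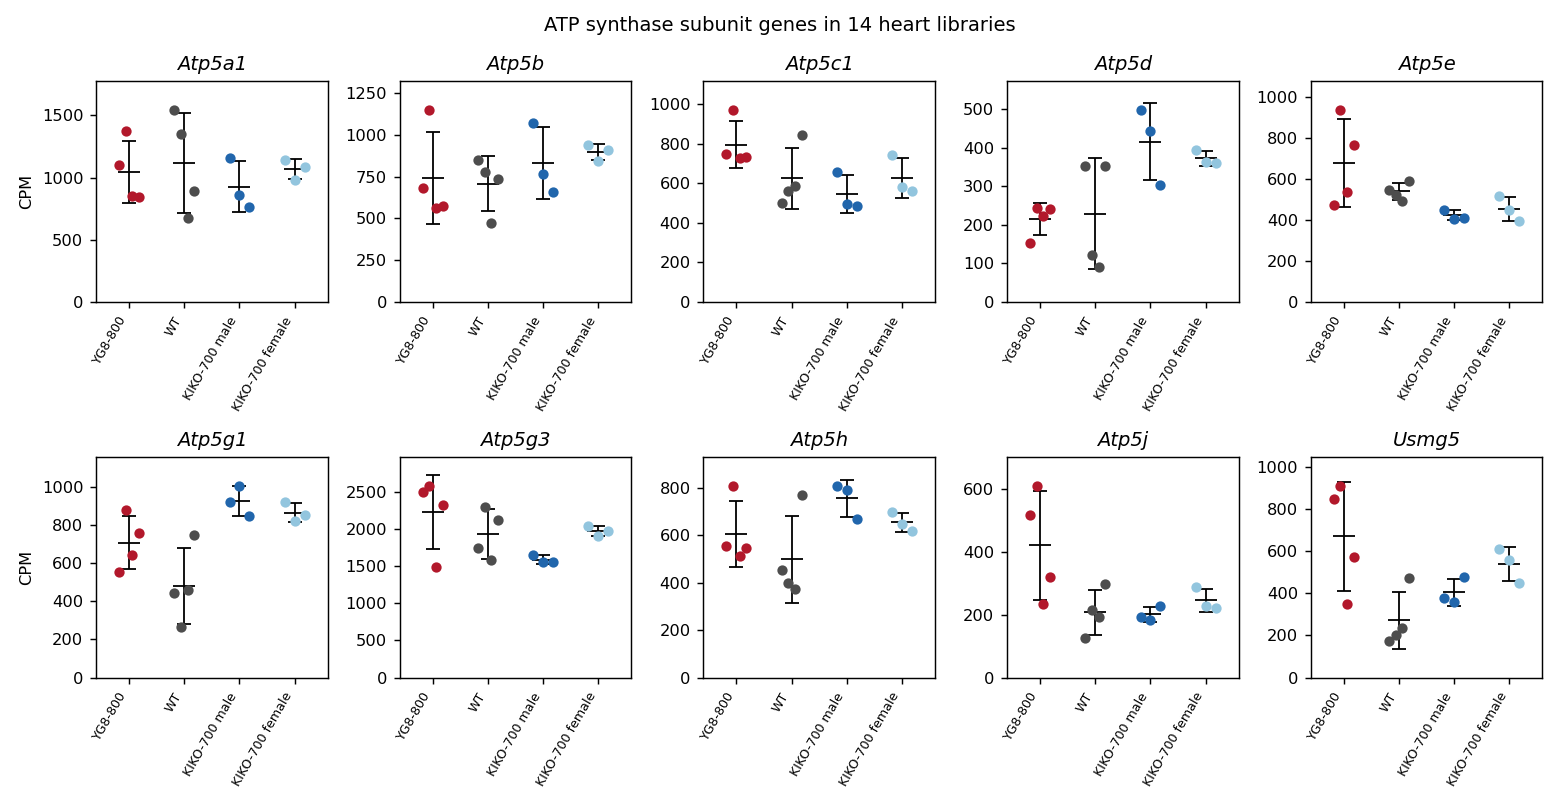
CPM (y axis, from 0) of each ATP synthase subunit gene in the 14 heart libraries, 1 point per library, with the group mean and SD as bars. *Usmg5* and *Atp5j* have higher means in YG8-800 than in WT with overlapping points, and *Atp5g3* is lower in all 3 KIKO-700 males than in all 3 KIKO-700 females.

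Below *Atp5g3*, *Atp5a1* was second by mean in all 4 groups when each gene was counted without its pseudogene copies. Its range overlapped that of the gene ranked next in each group but the KIKO-700 females. In KIKO-700 hearts, *Gm10039* held 395 to 544 CPM and *Gm10250*, a copy of *Atp5h*, 424.5 to 548.5 CPM. Were these reads from *Atp5g1* and *Atp5h*, *Atp5a1* would not be second there. The genes ranked from 2 to 10 overlapped their next neighbour throughout the YG8-800 and the WT groups. In KIKO-700 hearts the order was tighter. There, *Atp5j* lay below all other members without overlap, at 201 ± 23.7 CPM in males and 246 ± 36.7 CPM in females (SD, n = 3 each).

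To compare YG8-800 hearts with their WT controls, each gene was fitted with edgeR's quasi-likelihood test. Of 11875 genes tested, 0 passed an adjusted p of 0.05 (Benjamini-Hochberg over all genes), and 718 (6.05%) had an unadjusted p below 0.05, 361 higher (3.04%) and 357 lower (3.01%). DESeq2 called 7 genes at the adjusted threshold, and none was a member. Among the 10 members, 0 passed the adjusted threshold and 2 had an unadjusted p below 0.05, *Usmg5* and *Atp5j*, both higher. Fitted values on the log2 scale were above 0 for 10 of 10 members (median 0.42), against 49.5% of all genes tested, but for 8 of 10 when libraries were scaled by their size alone. No member had YG8-800 libraries that all lay above the WT libraries, and 0.682% of all genes did. That scaling, instead of the trimmed mean of M-values (TMM), moved the median of all genes to -0.21 on the log2 scale and that of the members to 0.30, with *Atp5a1* at -0.095 and *Atp5d* at -0.10.

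*Usmg5* encodes DAPIT, a small membrane subunit that helps complex V to form dimers. It was measured at 848, 910.5, 350 and 573 CPM in the 4 YG8-800 hearts, against 176, 202, 234 and 473 CPM in the 4 WT hearts. YG8-800 1, 2 and 4 were above every WT heart, while YG8-800 3 lay below WT 4, so the groups overlapped. The log2 fold change was 1.36 ± 0.43 (SE), with a 95% interval from 0.43 to 2.29, an unadjusted p of 0.0074 and an edgeR adjusted p of 0.786.

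*Atp5j* encodes the coupling factor 6 subunit of the peripheral stalk. It was measured at 516, 611, 235 and 320 CPM in YG8-800 hearts, against 126, 214, 194 and 298 CPM in WT hearts. The same YG8-800 libraries were high and the same pair, YG8-800 3 and WT 4, made the groups overlap. For *Atp5j* the log2 fold change was 1.09 ± 0.37 (SE), with a 95% interval from 0.30 to 1.88, an unadjusted p of 0.0105 and an edgeR adjusted p of 0.786.

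How far these differences reached depended on which WT libraries were kept. Without WT 4, edgeR called 146 genes at the adjusted threshold instead of 0. Genes at an unadjusted p below 0.05 rose from 718 to 1695, and members from 2 to 6. *Usmg5* then had a log2 fold change of 1.94 (edgeR adjusted p = 0.0192), and *Atp5j* one of 1.46 (edgeR adjusted p = 0.0609). After TMM scaling, 9 of the 10 members had their highest WT value in WT 4, the exception being *Atp5a1*. With WT 2 and WT 3 left out together, a setting chosen after seeing the data, only WT 1 and WT 4 were left as controls. Then 0 members had an unadjusted p below 0.05. *Usmg5* stood at 1.05 (unadjusted p = 0.0632, edgeR adjusted p = 0.849) and *Atp5j* at 1.00 (unadjusted p = 0.0557, edgeR adjusted p = 0.849). Fewer libraries also make the test less able to find a difference. Keeping genes of low count in the fit also took *Usmg5* and *Atp5j* past the threshold, with edgeR adjusted p-values of 0.00103 and 0.0243. In that setting 107 genes were called in all, instead of 0.

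**Figure D2:**
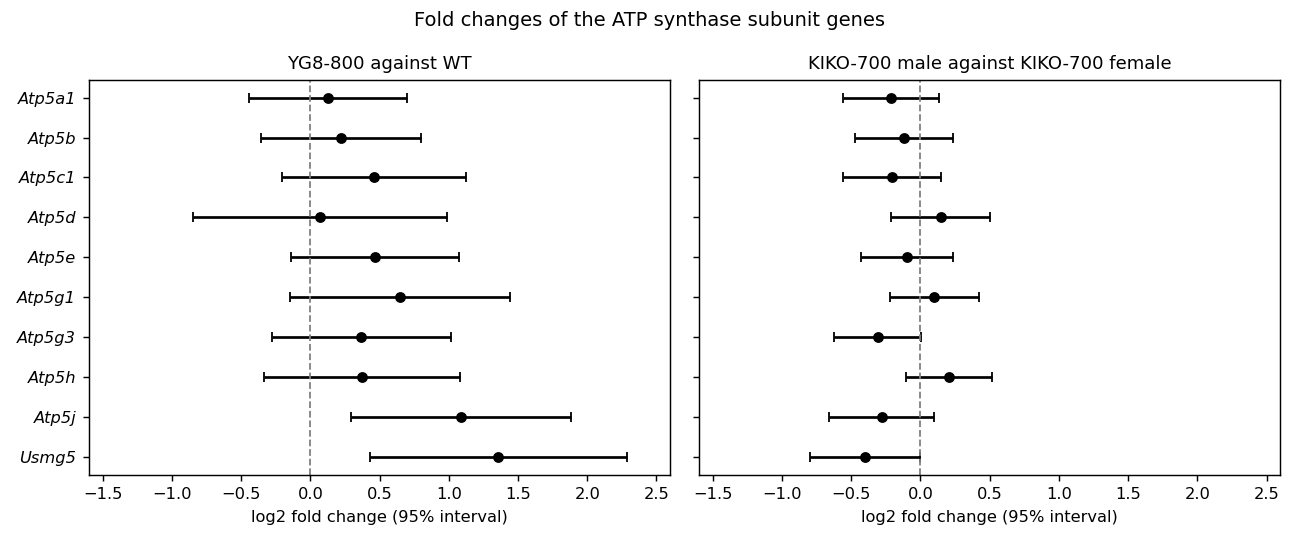
Log2 fold change (x axis, point) with its 95% interval (bar) for each member gene, YG8-800 over WT at left and KIKO-700 male over KIKO-700 female at right. At left the intervals of *Atp5j* and *Usmg5* lie above 0 and the other 8 span it, and at right that of *Usmg5* ends at -0.0012, just below 0.

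Reads of *Usmg5* may be shared with its copies. *Gm14539* took from 28.2% to 35.8% of the reads of *Usmg5* and the copy together in YG8-800 hearts, against 32.6% to 42.3% in WT hearts. Its own log2 fold change was 1.12 ± 0.36 (SE), close to that of *Usmg5*, and with all 4 copies of *Usmg5* added the gene stood at 1.27 (unadjusted p = 0.00688, edgeR adjusted p = 0.784). No copy of *Atp5j* was found. *Usmg5* overlaps the gene *Taf5*, which encodes a subunit of general transcription factor TFIID, by 16 bases at the 3′ ends, and *Atp5j* overlaps *Gabpa*, which encodes the DNA-binding subunit of GABP, by 701 bases at the starts, each on the other strand. The study describes the counted reads as stranded. *Taf5* was at 1.97 ± 0.81 CPM in YG8-800 and 2.17 ± 1.17 CPM in WT, and *Gabpa* at 4.61 ± 0.94 CPM in YG8-800 and 7.73 ± 3.05 CPM in WT (SD, n = 4 each). *Gabpa* had a log2 fold change of -0.52 (unadjusted p = 0.0859, edgeR adjusted p = 0.839).

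The rotor ring was read through *Atp5g1* and *Atp5g3*. *Atp5g2*, a further c subunit gene outside the 10 members, stood at 126 ± 52.9 CPM in YG8-800 and 128 ± 48.2 CPM in WT (SD, n = 4 each). *Atp5g1* was measured at 554, 878, 643 and 758 CPM in YG8-800 hearts, against 444, 264, 460 and 749 CPM in WT hearts. Here WT 4 again lay inside the YG8-800 range, and the other WT hearts lay below it. Its log2 fold change was 0.65 ± 0.37 (SE, edgeR adjusted p = 0.846). *Atp5g3* was measured at 2506, 2590, 1496 and 2325 CPM in YG8-800 hearts, against 1744, 2306, 1580 and 2129 CPM in WT hearts, with a log2 fold change of 0.37 ± 0.30 (SE, edgeR adjusted p = 0.886). YG8-800 3 held the lowest of these 8 values, and the WT range lay inside the YG8-800 range.

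The copies of *Atp5g1* were counted unevenly. *Gm10039* stood at 362, 376, 348 and 477 CPM in YG8-800 hearts, against 169, 65.0, 36.5 and 393 CPM in WT hearts. All 6 copies together took 40.6%, 30.9%, 36.3% and 39.7% of the reads of gene and copies in YG8-800 hearts, against 28.9%, 20.4%, 7.69% and 35.5% in WT hearts, so the WT hearts ranged more widely and WT 4 was nearest to the YG8-800 hearts. *Gm10039* had a log2 fold change of 1.33 ± 0.71 (SE, edgeR adjusted p = 0.839). With all 6 copies added to *Atp5g1*, its log2 fold change was 0.86 (unadjusted p = 0.055, edgeR adjusted p = 0.826).

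**Figure D3:**
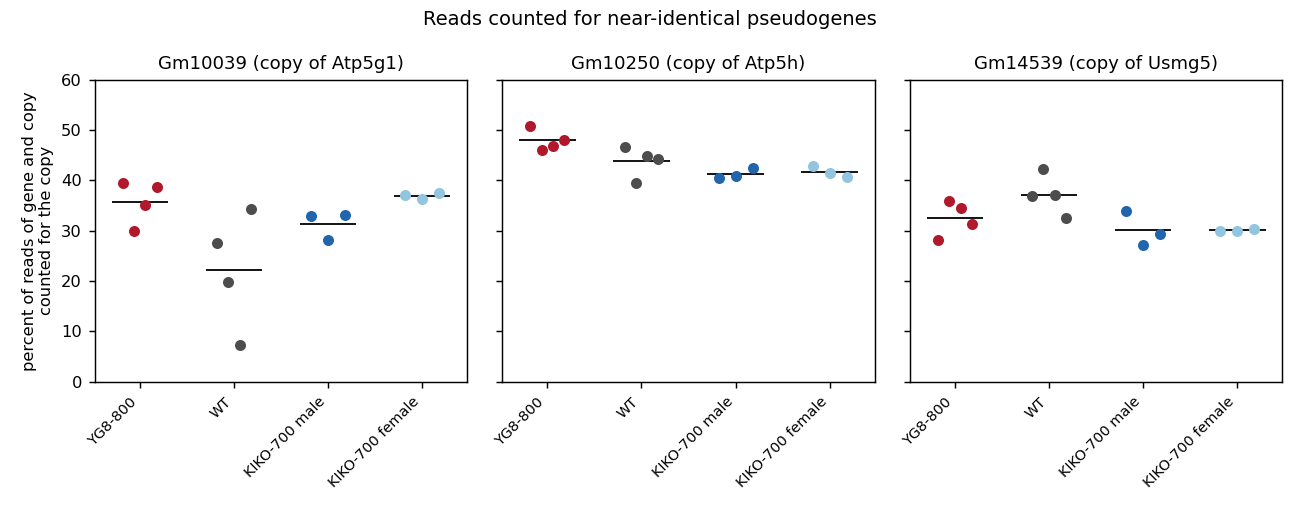
Percent of the reads of a gene and its closest pseudogene that were counted for the pseudogene (y axis), 1 point per library and the group mean as a line. For *Gm10039* the WT hearts run from 7.37% to 34.4%, a wider range than theirs for *Gm10250* (39.5% to 46.6%) and *Gm14539* (32.6% to 42.3%).

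The peripheral stalk d subunit is encoded by *Atp5h*, which was measured at 553, 809, 512 and 544.5 CPM in YG8-800 hearts, against 454, 398, 374 and 769 CPM in WT hearts. WT 4 was above 3 of the 4 YG8-800 hearts and the other WT hearts were below all of them. The log2 fold change was 0.37 ± 0.33 (SE, edgeR adjusted p = 0.899). Its copy *Gm10250* (chr15:5120654-5121135, minus strand, 98.97% identical) took from 46.1% to 50.8% of the reads of both in YG8-800 hearts, against 39.5% to 46.6% in WT hearts. The count tables do not show how reads that match both were assigned.

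In the catalytic head, *Atp5a1* encodes the alpha subunit and *Atp5b* the beta subunit, which holds the catalytic sites. *Atp5a1* was measured at 1104, 1375, 855 and 843 CPM in YG8-800 hearts, against 1545, 1348, 672 and 894 CPM in WT hearts. *Atp5b* was measured at 681, 1149, 563 and 574 CPM in YG8-800 hearts, against 850.1, 775, 472 and 733 CPM in WT hearts. For both genes the ranges of the groups overlapped. Their log2 fold changes were 0.13 ± 0.27 and 0.22 ± 0.27 (SE), with edgeR adjusted p-values of 0.961 and 0.918, and that of *Atp5a1* turned to -0.0052 without WT 3.

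The central stalk is formed by the gamma, delta and epsilon subunits. *Atp5c1* (gamma) was measured at 750.2, 972, 729 and 734 CPM in YG8-800 hearts, against 502.5, 561, 588 and 846 CPM in WT hearts, with WT 4 again the 1 WT heart inside the YG8-800 range and a log2 fold change of 0.46 ± 0.31 (SE, edgeR adjusted p = 0.867). *Atp5e* (epsilon) was measured at 475, 936, 534 and 762.5 CPM in YG8-800 hearts, against 547, 521, 494 and 591 CPM in WT hearts, and the log2 fold change was 0.47 ± 0.28 (SE, edgeR adjusted p = 0.849). The WT values of *Atp5e* were close together and the YG8-800 values lay below, among and above them. *Atp5d* (delta) was measured at 153, 243, 222 and 240.4 CPM in YG8-800 hearts, against 354, 121, 90.3 and 353 CPM in WT hearts. The WT hearts of *Atp5d* fell into a high and a low pair around the YG8-800 values, and the log2 fold change of 0.07 ± 0.42 (SE, edgeR adjusted p = 0.986) turned to -0.18 without WT 2 or without WT 3 and to -0.05 without YG8-800 4. The low pair was WT 2 and WT 3, the libraries that were also low in *Tnnt2* and *Myl2* but not in *Pln*. Without both of them the log2 fold change was -0.57 (unadjusted p = 0.0819, edgeR adjusted p = 0.850). The 3 copies of *Atp5c1*, *Atp5c1-ps* among them, took at most 1.57% of the reads of gene and copies.

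Other parts of the enzyme and of its supply were read from lists. Of 16 further genes of complex V, 0 had an unadjusted p below 0.05, and 12 were fitted above 0 (median 0.27). *Atpif1*, the inhibitor that stops ATP hydrolysis, was at 237 ± 19.4 CPM in YG8-800 and 201 ± 44.6 CPM in WT (SD, n = 4 each, log2 fold change 0.36, edgeR adjusted p = 0.886). The subunits encoded by mitochondrial DNA had log2 fold changes below 0 with intervals that span 0, namely -0.11 ± 0.32 for *mt-Atp6* and -0.23 ± 0.47 for *mt-Atp8* (SE, edgeR adjusted p-values of 0.977 and 0.961). The phosphate and adenine nucleotide carriers *Slc25a3*, *Slc25a4* and *Slc25a5* had 0 of 3 at an unadjusted p below 0.05.

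The genes of the respiratory chain, whose complexes pass electrons on to oxygen, were counted in the same way. Of 36 complex I genes, 33 were fitted above 0 (median log2 fold change 0.44) and 3 had an unadjusted p below 0.05, all higher. Of 27 genes of complexes II to IV, 24 were above 0 and 0 had an unadjusted p below 0.05, again with a median of 0.44. The difference between the members and these lists was not tested. Beside these values, the 4 adipocyte markers summed to between 5.11 and 14.2 CPM in YG8-800 hearts, against 1.53 to 110.0 CPM in WT hearts, and 2 of the 3 tested were lower at an unadjusted p below 0.05. The 5 atrial markers summed to between 82.7 and 1210 CPM in YG8-800 hearts, against 545 to 1420 CPM in WT hearts. Of the 5 macrophage markers, which summed to between 239 and 290 CPM in YG8-800 hearts, against 262 to 402 CPM in WT hearts, 1 was fitted above 0 (median -0.44), and *Csf1r*, the receptor for the macrophage growth factor CSF1, was lower by an unadjusted p of 0.00989 (edgeR adjusted p = 0.786). Fibroblast markers were above 0 for 1 of 6 (median -0.31), with *Tcf21* lower by an unadjusted p of 0.0259 (edgeR adjusted p = 0.787). Erythroid markers were above 0 for 0 of 5 (median -0.51) and endothelial markers for 1 of 5 (median -0.04), with 0 at an unadjusted p below 0.05 in either list. Ventricular cardiomyocyte markers were above 0 for 5 of 8 (median 0.06) and smooth muscle markers for 2 of 3 (median 0.02), again with 0 at that threshold. The part of these cell types in the members' values was not tested.

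Between the sexes, KIKO-700 males were compared with KIKO-700 females. Of 11801 genes tested, 8 passed the adjusted threshold (0.0678%) and 843 had an unadjusted p below 0.05 (7.14%), 400 higher (3.39%) and 443 lower (3.75%) in males. Among the 10 members, 0 passed the adjusted threshold and 1, *Usmg5*, had an unadjusted p below 0.05. Values above 0 were fitted for 3 of 10 members, against 50.9% of all genes, and the members' median log2 fold change was -0.16. The spread between hearts was smaller here than among the YG8-800 and WT hearts, with a biological coefficient of variation of 0.17, against 0.35.

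*Usmg5* was measured at 379, 357 and 475 CPM in KIKO-700 males, against 607, 558 and 449 CPM in KIKO-700 females. Male 3 lay above female 3, so the groups overlapped. Its log2 fold change was -0.40 ± 0.18 (SE), with an unadjusted p of 0.0494 and an edgeR adjusted p of 0.697. Its copy *Gm14539* had a log2 fold change of -0.40 as well (edgeR adjusted p = 0.697).

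*Atp5g3* was the 1 member whose groups did not overlap, at 1655, 1565 and 1557 CPM in KIKO-700 males, against 2048, 1912 and 1981 CPM in KIKO-700 females. Of all genes tested, 6.4% lay lower in males in this way. On the log2 scale the difference was -0.31 ± 0.14 (SE), with an unadjusted p of 0.0511 and an edgeR adjusted p of 0.697. *Atp5g1* was measured at 919, 1008 and 849 CPM in males, against 923, 823 and 851 CPM in females, with a log2 fold change of 0.10 ± 0.15 (SE, edgeR adjusted p = 0.952), and at -0.02 with its copies added.

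The balance between *Atp5g1* and *Atp5g3* was compared as the ratio of their reads within a library, which does not depend on scaling. This ratio leaves out *Atp5g2*. There were 55.6, 64.5 and 54.5 *Atp5g1* reads per 100 *Atp5g3* reads in KIKO-700 males, against 45.1, 43.1 and 43.0 in KIKO-700 females. All 3 males lay above all 3 females. The log2 ratio was -0.79 ± 0.13 in males and -1.20 ± 0.04 in females (SD, n = 3 each), a difference of 0.41 with p = 0.1 in a two-sided exact permutation test, the smallest p that 3 against 3 allows. With the 6 copies of *Atp5g1* added, chosen after seeing the data, the ratio was -0.24 ± 0.07 in males and -0.52 ± 0.04 in females (SD, n = 3 each), and the difference of 0.29 again had no overlap (exact permutation p = 0.1). In YG8-800 hearts there were 22.1, 33.9, 43.0 and 32.6 *Atp5g1* reads per 100 *Atp5g3* reads, against 25.4, 11.5, 29.1 and 35.2 in WT hearts. These groups overlapped, and the log2 ratios of -1.64 ± 0.40 in YG8-800 and -2.10 ± 0.71 in WT (SD, n = 4 each) differed by 0.45 (two-sided exact permutation p = 0.371). Without WT 2, the library with the lowest ratio, the difference was 0.11, and with the copies added to all libraries it was 0.73 (two-sided exact permutation p = 0.143).

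**Figure D4:**
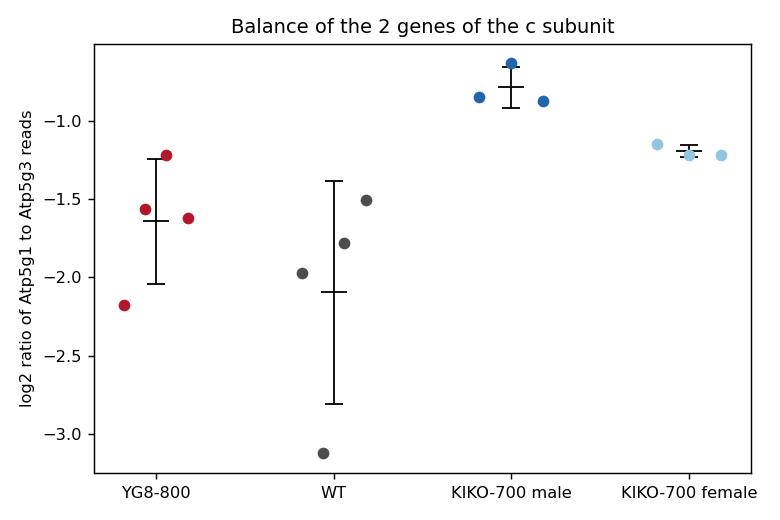
Log2 ratio of *Atp5g1* to *Atp5g3* reads (y axis), 1 point per library, with the group mean and SD as bars. All 3 KIKO-700 males, with a mean of -0.79, lie above the KIKO-700 females, with a mean of -1.20, while the YG8-800 and WT points overlap.

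The remaining members differed by less between the sexes than their intervals. *Atp5h* was measured at 808, 788 and 667.5 CPM in males, against 696, 648 and 618 CPM in females (log2 fold change 0.21 ± 0.15, SE), and *Atp5j* at 193, 183 and 228 CPM in males, against 289, 229 and 222 CPM in females (-0.28 ± 0.18, SE). In both, 1 male lay within the range of the females. *Atp5d* was higher by 0.15 ± 0.17 in males, with 499, 444 and 305 CPM against 395, 362 and 362 CPM in females, and its males spanned the whole female range.

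The head subunits and the other stalk subunits had log2 fold changes below 0, of -0.21 ± 0.16 for *Atp5a1*, -0.12 ± 0.17 for *Atp5b*, -0.21 ± 0.17 for *Atp5c1* and -0.10 ± 0.15 for *Atp5e* (SE). In plain CPM, 7 of the 10 members had their highest male value in male 1, but after TMM scaling 4 did, as many as in male 3. Without male 1, edgeR called 864 genes instead of 8, and 2610 genes instead of 843 had an unadjusted p below 0.05. Among them were 4 members, *Atp5a1*, *Atp5b*, *Atp5c1* and *Atp5g3*, with edgeR adjusted p-values from 0.119 to 0.218. *Usmg5* then had an unadjusted p of 0.0623.

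Of the 16 further complex V genes, *mt-Atp8* was at 164 ± 58.9 CPM in males and 87.9 ± 20.7 CPM in females (SD, n = 3 each), with a log2 fold change of 0.92 ± 0.29 (SE, unadjusted p = 0.0083, edgeR adjusted p = 0.544). *Fmc1*, an assembly factor of F1 in yeast, was at 208 ± 60.3 CPM in males and 279 ± 7.66 CPM in females (SD, n = 3 each), with a log2 fold change of -0.43 ± 0.17 (SE, unadjusted p = 0.0262, edgeR adjusted p = 0.650). Male 1 was level with female 1 for *mt-Atp8*, each at 101 CPM, and within the female range for *Fmc1*, at 278 CPM. Mitochondrial DNA held 31.2% of the counts in male 1, against 37.1% and 37.2% in males 2 and 3. The part of this in these values was not tested. *mt-Atp6* had a log2 fold change of 0.39 ± 0.20 and *Atpif1* one of -0.24 ± 0.20 (SE, edgeR adjusted p-values of 0.736 and 0.870). The list as a whole was divided, with 8 of 16 above 0 and a median of -0.03. Complex I had 9 of 36 genes above 0 (median -0.16), and complexes II to IV 7 of 26 tested genes (median -0.15). The 4 adipocyte markers were lower in males, summing to between 8.37 and 11.9 CPM, against 29.2 to 41.4 CPM in females. All 4 had an unadjusted p below 0.05 (median log2 fold change -1.89), against 3.75% of all genes lower at that threshold. Of them, 1 passed the adjusted threshold (edgeR adjusted p = 0.0062), as did 0.0678% of all genes. Of the 5 macrophage markers, which summed to between 356 and 537 CPM in males, against 451 to 589 CPM in females, 1 was fitted above 0 (median -0.43), with *Adgre1* (-0.74, unadjusted p = 0.00938, edgeR adjusted p = 0.555) and *Lyz2* (-0.52, unadjusted p = 0.0142, edgeR adjusted p = 0.603) lower. The endothelial markers were above 0 for 4 of 5 (median 0.19), and *Cdh5*, the adhesion protein of endothelial junctions, was higher by 0.44 (unadjusted p = 0.0120, edgeR adjusted p = 0.586). Ventricular cardiomyocyte markers were above 0 for 2 of 8 (median -0.06), fibroblast markers for 4 of 6 (0.15) and atrial markers for 3 of 5 (0.04). Erythroid markers were above 0 for 2 of 5 (-0.08) and smooth muscle markers for 1 of 3 (-0.12). In these lists 0 had an unadjusted p below 0.05. The part of these cell types in the members' values was not tested.

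The members were also compared from heart to heart within the groups. With log2 CPM centred within each group over the 14 libraries, Pearson's r was above 0 in 38 of 45 pairs of members, with a median of 0.44. The median was 0.47 for the 630 pairs of complex I genes, 0.34 for the 351 pairs of complexes II to IV and 0.01 for all pairs of 5032 other genes of at least 10 CPM on average, and the difference between these lists was not tested. Much of this rested on WT 4, in which the members averaged 0.69 above the mean of their group, against -0.34 to 0.14 in the other 13 libraries. Without WT 4, which was chosen after seeing the data, r was above 0 in 30 of the 45 pairs, with a median of 0.16, against 0.29 for complex I and 0.17 for complexes II to IV. The closest pair was *Atp5j* and *Usmg5* (r = 0.94, and 0.92 without WT 4), the members with the lowest p-values in the comparison of YG8-800 with WT, whose 8 libraries are among the 14. *Atp5h* followed the mean of the other members most closely (r = 0.95, and 0.77 without WT 4). *Atp5a1* followed it hardly at all (r = 0.0027, and -0.015 without WT 4). With all 14 libraries, 6 of the 7 pairs with r below 0 held *Atp5a1*. Without WT 4 the lowest r with the other members was that of *Atp5d*, at -0.30, against 0.46 with all libraries. These libraries share their depth and scaling within a library, so that the values are a description.

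**Figure D5:**
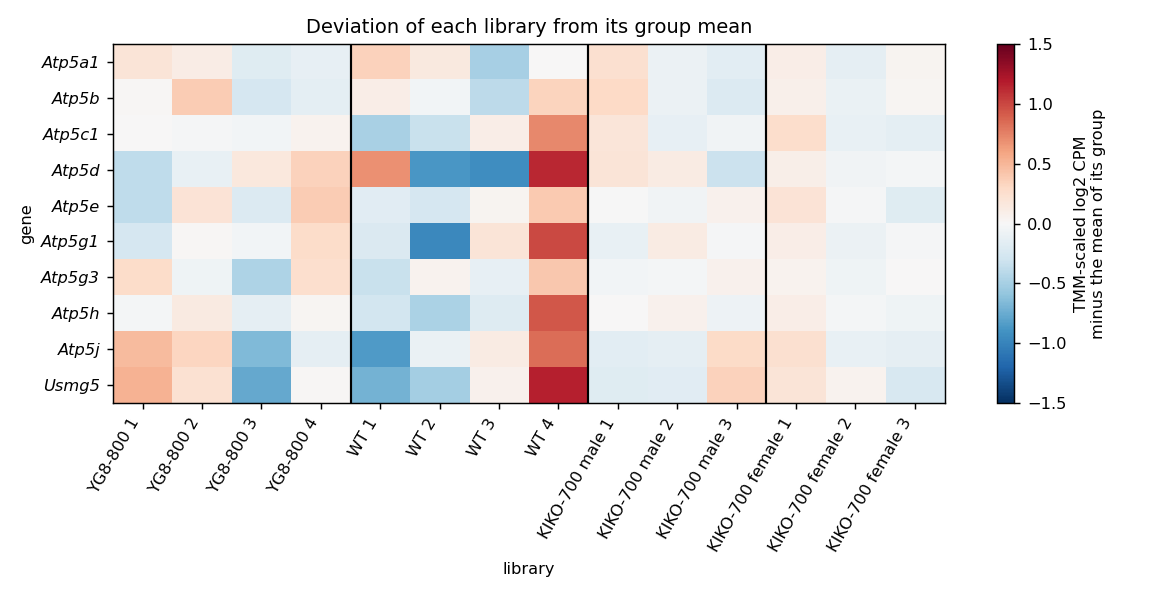
TMM-scaled log2 CPM of each member (rows) in each library (columns), minus the mean of its group, with black lines between groups. The column of WT 4 is red for most members, with *Usmg5* at 1.17 and *Atp5d* at 1.12 above the WT mean, and the *Atp5j* and *Usmg5* rows follow each other.

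Among the same 5032 genes, the pattern over the 14 libraries most like the mean of the members was that of *Cox6b1* (r = 0.95), a subunit of complex IV, followed by *Gm10250* (r = 0.94), the copy of *Atp5h*, whose reads may be shared with it. Next came *Emg1* (r = 0.94), a ribosome biogenesis factor, *Fitm1* (r = 0.93), which acts in lipid droplet formation, *Ndufa6* (r = 0.92), a subunit of complex I, and *Atp6v0e* (r = 0.92), a subunit of the vacuolar proton pump. Without WT 4 these 6 genes had r from 0.52 to 0.72. In plain CPM, all 10 members had their highest YG8-800 value in YG8-800 2, the library with the least mitochondrial DNA in its counts. After TMM scaling this held for 2 of the 10.

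The annotation places the other members at chr18:77773729-77782869 (*Atp5a1*, plus strand), chr10:128083273-128090391 (*Atp5b*, plus), chr2:10056016-10080510 (*Atp5c1*, minus), chr10:80138632-80145818 (*Atp5d*, plus), chr2:174461072-174464105 (*Atp5e*, minus), chr11:115415689-115419962 (*Atp5h*, minus) and chr16:84827866-84835625 (*Atp5j*, minus). All 10 are protein-coding genes on the chromosomes of the nucleus.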

How the data were processed

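RNA was extracted from mouse hearts and read as 3′ tags with a stranded Lexogen QuantSeq FWD kit. The authors deposited 1 table of whole-number counts per gene for each of 14 libraries. The paper names Rsubread as aligner, while processing notes of the submitters give STAR 2.5.0a, HTSeq 0.6.1 and GRCm38.p6, which were not reconciled here. How reads that match several loci were counted is not given in the sources used here. Of 54532 gene identifiers, 54495 (99.9%) matched GENCODE M21. CPM were computed on the library total, and fold changes are TMM-scaled.

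Groups were taken from the labels. Counts were tested in R 4.3.3 with edgeR 4.0.16 (filterByExpr, TMM, robust quasi-likelihood, Benjamini-Hochberg), with DESeq2 1.42.0 and limma 3.58.1 as alternatives, and the fit was tested on simulated data. Replicates are mice according to the methods, and same numbers did not pair them. Ratios were compared by exact permutation (scipy 1.17.1, pseudocount 0.5). Copies are pseudogenes that match a member at 90% identity or more over at least 100 bases and 80% of their transcript (BLAST 2.17.0). All 10 members were named, with further genes of complex V at an unadjusted p below 0.05, *Atp5g2*, *Atpif1*, *mt-Atp6* and *mt-Atp8*. Also named were the 6 genes most similar to the members and close pseudogene copies. *Taf5*, *Gabpa* and the copies other than *Atp5c1-ps* were chosen after seeing the data. The members and lists were chosen with earlier results of these data known. The targeted gene is not reported here.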

Additional observations from a re-analysis of the deposited data

Results flagged for a closer look

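In YG8-800 hearts, YG8-800 2 stood apart from the other 3 for *Atp5c1*, at 972 CPM with the gap to its nearest neighbour taking 0.912 of the group's range, and for *Atp5h*, at 809 CPM with a gap of 0.863 of the range. Both gaps exceed Dixon's critical value for 4 values, which chance exceeds in about 1 of 20 groups. The rule was applied to the 10 members and the c subunit ratio, each in the YG8-800 and the WT group. With so many groups screened, such gaps can arise by chance, and members of the same library are not independent. YG8-800 2 had 28.9% of its counts from mitochondrial DNA, the lowest share of the 14 libraries, and the part of this in the values was not tested. After TMM scaling, *Atp5c1* in this library lay 0.02 below its group mean on the log2 scale, and *Atp5h* lay 0.13 above it.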

How the results depend on the processing

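In the comparison of YG8-800 with WT, *Usmg5* and *Atp5j* had an unadjusted p below 0.05 in 22 of 23 alternatives, the exception being WT 2 and WT 3 left out together (chosen after seeing the data), and their log2 fold changes ran from 1.05 to 1.94 and from 0.85 to 1.46. The genes called at an adjusted p were 107 with no filter on low counts, 7 with DESeq2 and 1 with all 14 libraries in one fit, and those at an unadjusted p were 1727 and 1438 with no filter and with all libraries. With no filter, 2 members were called. With each library left out in turn, the called genes numbered 0 to 146, those at an unadjusted p 484 to 1695, the called members 0 to 1 and the members at an unadjusted p 2 to 6, the upper values being those without WT 4. *Atp5a1* and *Atp5d* turned to -0.095 and -0.097 with library size alone, and to -0.0149 and -0.567 without WT 2 and WT 3, where 0 members had an unadjusted p below 0.05. With each library left out, *Atp5a1* ranged from -0.0052 (without WT 3) to 0.21, and *Atp5d* from -0.176 (without WT 2 or WT 3, and -0.0502 without YG8-800 4) to 0.56. The cause was not tested. Adding *Xist* as a covariate kept 2 members at an unadjusted p, with a median of 0.36.

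In the KIKO-700 comparison, the genes called were 105 with no filter, 2 with at least 10 counts in every library, 18 with DESeq2 and 0 with all 14 libraries in one fit, and those at an unadjusted p were 1475 and 186 with no filter and with all libraries. The members at an unadjusted p were 0 with RLE factors, library size alone, all 14 libraries, the mitochondrial DNA and 4 leading Gm genes left out or the replicate block, and 2 with upper-quartile factors, DESeq2, limma-voom or limma-trend. With each library left out, the called genes numbered 4 to 864, those at an unadjusted p 460 to 2610 and the members at an unadjusted p 0 to 4, the upper values being those without male 1. *Atp5e* ranged from -0.18 to 0.0131 (without female 1) with each library left out, and *Atp5g1* to -0.0223 with its copies added, an alternative chosen after seeing the data. The c subunit ratio kept its direction in each alternative, at 0.29 to 0.45 in the KIKO-700 hearts and 0.11 to 0.73 in the YG8-800 and WT hearts, the 0.29 and the 0.73 with the copies of *Atp5g1* added.

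Same-numbered libraries did not deviate together (correlations from -0.23 to 0.25 and from -0.19 to -0.04), so the replicate block is no paired analysis. With the block, edgeR gave 867 genes at an unadjusted p for YG8-800 against WT and 3 members.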
